A study of Mus musculus with 28 samples.

Results

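The 32 genes described here encode the transcription factor Atf4 with its partners and targets, enzymes of serine, folate, asparagine and proline synthesis, cytosolic tRNA synthetases, and the lipoprotein receptor Vldlr. They were listed by name from 24089 genes measured by RNA-seq in mouse CD4+ T cells, with no threshold on a measured value, although earlier results of these data were known when the list was drawn up. Naïve CD4+ CD62L+ T cells from spleen and lymph nodes were cultured with plate-bound anti-CD3 and soluble anti-CD28 under 4 conditions. These were no added cytokine (control), TGF-β alone, IL-4 alone, or the 2 together, which the study used to drive Th9 differentiation. All donors carried loxP-flanked *Tgfbr1* alleles (*Tgfbr1* f/f) and ER-Cre, a Cre recombinase activated by tamoxifen. Animals given oil are called WT here and animals given tamoxifen KO, so that loss of the receptor and exposure to tamoxifen cannot be told apart. There were 3 RNA-seq libraries in each of the 8 groups of genotype and culture, 24 in all. Their labels number them 1 to 3 within each genotype, and the same 3 numbers recur in all 4 cultures. DNase-seq, which maps open chromatin as DNase I hypersensitive sites (DHSs), was done on 4 libraries, 1 for each genotype in control and TGF-β with IL-4 cultures.

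Atf4 is translated more when the kinases that sense amino acid shortage or a stressed endoplasmic reticulum phosphorylate the initiation factor eIF2, a state called the integrated stress response. With partners of the C/EBP family it binds CARE elements and activates genes for amino acid uptake, amino acid synthesis and tRNA charging. The feedback gene *Trib3* restrains Atf4. Activated T cells grow and divide rapidly, and rely on serine and mitochondrial folate enzymes to feed purine synthesis.

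The headings of the expression table conflict with read counts that accompany 8 of the WT libraries. The counts allowed 1991 to 3821 genes to be compared per library. All 8 matched the column at their own place in library-number order. At least 99.8% of the compared genes were in the same state of zero or non-zero, against at most 85.8% for the next best column. Of these 8 columns, 2 carried the library's own heading and 6 carried another. The columns were therefore read by position in library-number order. For 4 WT and all 12 KO columns there were no counts to compare, so their culture rests on that order alone. Heading and position name the same genotype for all 24 columns, but the same culture for 8. Read as headed, the table called no member in any of the 15 comparisons made here.

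Expression is given as RPKM, reads scaled to gene length and to sequencing depth, a unit that allows levels of different genes to be set side by side. Depth relative to a common scale ran from 0.794 to 1.66 across the libraries. *Tgfbr1* itself, on chr4:47366094-47427803 of mm9, was read at 3.02, 3.25 and 3.31 RPKM in WT control cultures, 13.9, 14.0 and 14.5 with TGF-β, 3.69, 3.48 and 3.94 with IL-4, and 17.6, 19.5 and 20.7 with both. In KO cultures it lay between 2.32 and 5.18 RPKM. A value for the whole gene does not show whether the deleted exons were read, so it does not test the deletion. *Il9*, the cytokine gene of Th9 cells, averaged 9.66 RPKM in WT control, 43.7 with TGF-β, 15.0 with IL-4 and 34.6 with both. By this reading it was thus highest with TGF-β alone. The study states, in contrast, that *Il9* is not transcribed in response to either cytokine by itself. The cause of this difference was not tested. In KO its group means lay between 0.369 and 1.85 RPKM. Summed RPKM of 8 CD4 T cell markers lay between 1492 and 1843 in WT and between 1373 and 1803 in KO libraries. The sums for CD8 T cell, B cell, myeloid and NK cell markers reached at most 36.3 RPKM, and those for erythroid markers 22.0 RPKM in WT and 0.314 RPKM in KO; their part in the results was not tested. In such bulk samples, fewer cells of a type and less RNA per cell cannot be told apart.

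The CARE core was searched for in the promoters of the members, because it is the sequence that Atf4 and its C/EBP partners recognise. RefSeq windows (GRCm38.p6) of 250 bases before to 50 bases after the transcription start were found for 28 members, and not for *Cars*, *Lars*, *Nars* and *Wars*. The core was spelled TGATGNAA, where N is any base, and both strands were read. It was present in 10 of the 28 members (35.7%), against 4.51% of 27025 genes with a window and 2.67% of 7389 genes with a mean of at least 1 RPKM. With a T or a C required after the core, the counts were 9 members (32.1%), 1.95% of all genes and 1.10% of expressed genes. The members are known for this pathway, so the share describes the choice of genes. For each of these 10 genes, 1 stretch is shown because it places the element relative to each start, written on the strand that spells the core, with the core in capitals.
Asns (chr6:7693214-7693243, minus strand): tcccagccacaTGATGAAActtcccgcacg
Chac1 (chr2:119351038-119351067, minus strand): cctggcaggagTGATGCAAcggcagggaag
Trib3 (chr2:152344028-152344057, plus strand): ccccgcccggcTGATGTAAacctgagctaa
Pycr1 (chr11:120643833-120643862, minus strand): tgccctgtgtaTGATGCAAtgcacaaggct
Vldlr (chr19:27216809-27216838, minus strand): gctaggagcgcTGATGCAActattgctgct
Aars (chr8:111033840-111033869, minus strand): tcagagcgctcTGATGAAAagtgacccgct
Gars (chr6:55037960-55037989, minus strand): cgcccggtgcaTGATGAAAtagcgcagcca
Iars (chr13:49682126-49682155, minus strand): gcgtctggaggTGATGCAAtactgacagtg
Tars (chr15:11399655-11399684, plus strand): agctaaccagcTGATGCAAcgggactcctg
Yars (chr4:129189895-129189924, plus strand): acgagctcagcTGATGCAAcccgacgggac

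Of the 8 tRNA synthetases with a window, 5 held a core, and in *Gars*, *Iars*, *Tars* and *Yars* its most upstream base lay between 30 bases before and 7 bases after the start. The core shown for *Aars* began 9 bases after the start. The core of *Asns*, for asparagine synthetase, began 23 bases before the start and that of *Trib3* 14 bases after it, whereas those of *Pycr1*, *Chac1* and *Vldlr* lay 103, 193 and 200 bases upstream. The windows of *Sesn2*, *Ddit3* and *Mthfd2*, whose RNA levels are described next, held no match, nor did those of *Atf4*, *Psat1* and *Phgdh*, which says only that these letters are not in these windows.

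Most of the members were abundant and moved little. Over the 24 libraries, 30 of the 32 had a mean of at least 1 RPKM, 20 had at least 50 RPKM, and 21 lay above the 75th percentile of the 9726 genes with a mean of at least 1 RPKM. The highest mean levels were those of *Phgdh*, the first enzyme of serine synthesis, at 423 RPKM and *Shmt2*, the mitochondrial enzyme that passes a carbon from serine to folate, at 327 RPKM. They were followed by *Gars* (182 RPKM), *Shmt1* (167 RPKM), *Psat1* (162 RPKM), *Mars* (160.1 RPKM), *Mthfd1* (139 RPKM) and *Nars* (138 RPKM). Atf4 RNA averaged 65.0 RPKM. Among stress-responsive genes the means were far lower, at 9.78 RPKM for *Sesn2*, 7.92 for *Asns*, 6.97 for *Ddit3*, 3.28 for *Cebpb*, 2.16 for *Cebpg*, 1.87 for *Pycr1* and 1.66 for both *Atf5* and *Trib3*. In 21 of the 30 members the highest library was less than 1.5 times the lowest, while the ratio reached 4.13 for *Sesn2*, 3.50 for *Cebpb*, 2.74 for *Ddit3*, 2.53 for *Trib3* and 2.05 for *Atf5*.

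**Figure D1:**
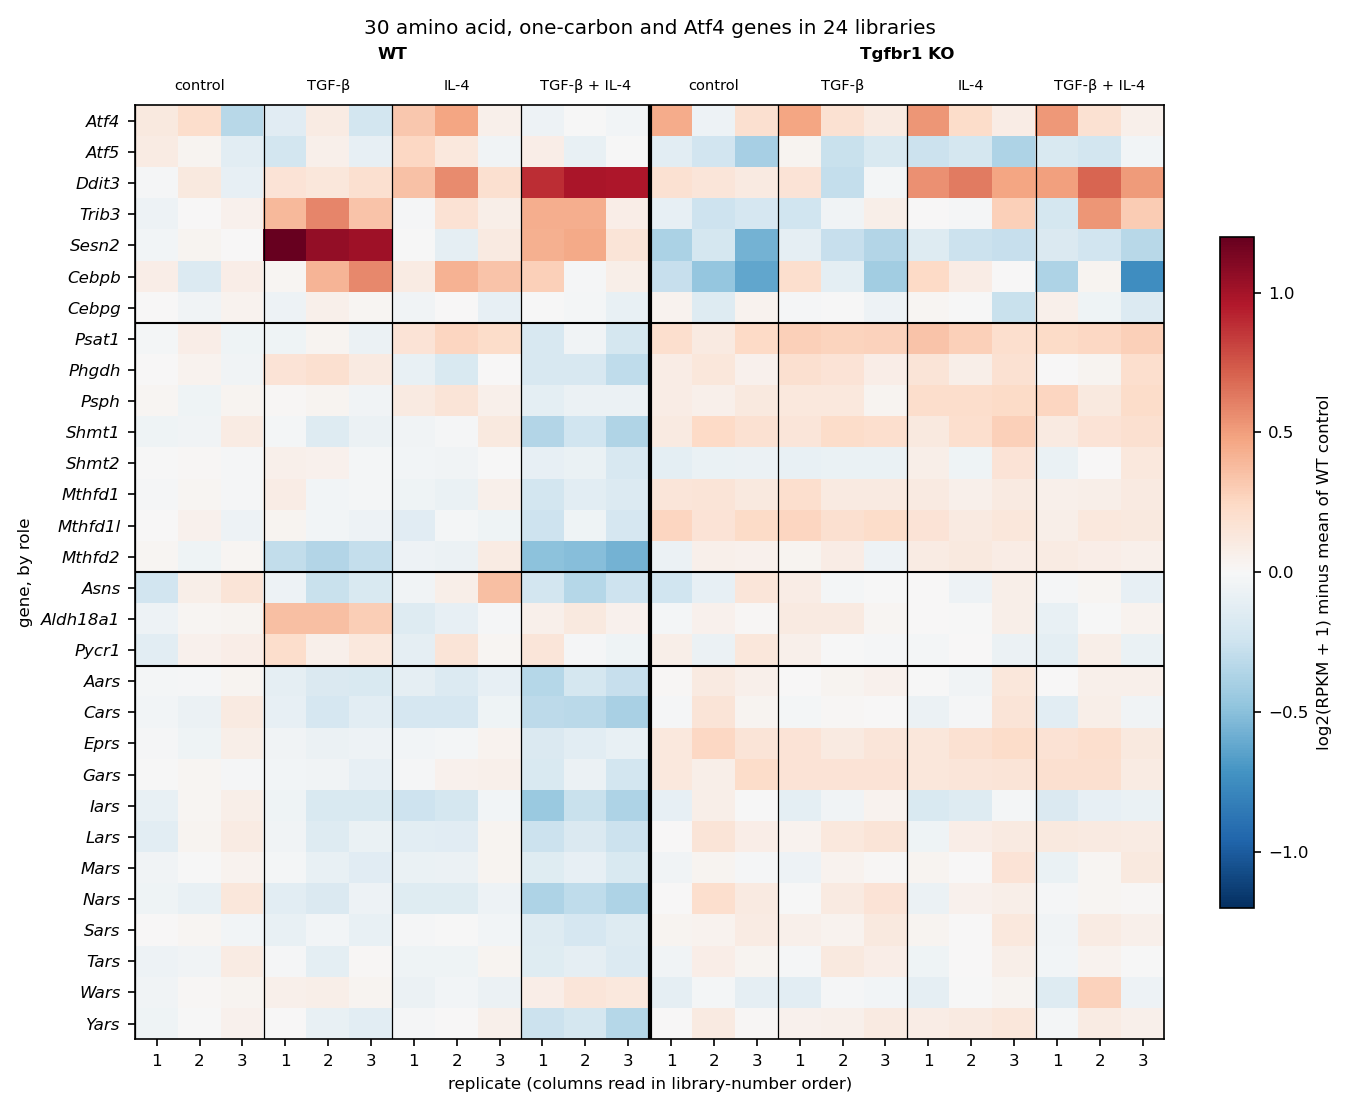
Level of each of the 30 members with a mean of at least 1 RPKM in each of the 24 libraries, as the difference in log2(RPKM + 1) from the mean of the 3 WT control libraries, with members ordered by role and libraries by genotype and culture. *Sesn2* stands out in the 3 WT TGF-β libraries (18.9 to 23.3 RPKM) and *Ddit3* in the 3 WT libraries with TGF-β and IL-4 (10.4 to 11.1 RPKM), while most enzyme and synthetase rows are nearly even.

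*Chac1*, which degrades glutathione, and *Vldlr* stayed below 1 RPKM and entered no test. *Chac1* was read at 0.248, 0.482 and 0.295 RPKM in WT control cultures, 0.245, 0.142 and 0.257 with TGF-β, 0.477, 0.609 and 0.543 with IL-4, and 0.612, 0.414 and 0.368 with both. In KO cultures the corresponding values were 0.339, 0.244 and 0.17, then 0.337, 0.238 and 0.297, then 0.572, 0.626 and 0.488, then 0.471, 0.563 and 0.517 RPKM. In KO, the 6 libraries with IL-4 thus all lay above the 6 without it, but they rest on few reads, 6 to 31 per library over all cultures. *Vldlr* was listed at 0 in 9 libraries and reached 0.0308 RPKM at most.

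Changes were tested with limma on log2(RPKM + 1), and a gene was called when its Benjamini-Hochberg adjusted p was under 0.01 and its fold change over 1.5, the study's own thresholds. Because the abundant enzymes changed by less than that fold, counts with the adjusted p alone are also given, a choice made after seeing the values. The shares of all genes set beside the counts cover every gene tested, while most members were abundant. These shares are thus not matched for level, here and below. In WT cells, TGF-β alone called 1 member of 30, against 5.71% of all genes tested; by adjusted p alone, 3 members were higher and 1 lower, against 6.72% and 4.38% of all genes. TGF-β with IL-4 also called 1 member against control, with 9.27% of all genes called. By adjusted p alone, 1 member was higher and 8 were lower in that comparison, where 16.5% of all genes were higher and 11% lower. IL-4 alone called none, by either rule, with 1.29% of genes called and 2.07% past the adjusted p. An unadjusted p under 0.05 was found for 5 members. Counts by unadjusted p, and counts of members by the sign of their change alone, have no share of all genes beside them, here and below. They do not show whether the members exceed other genes. The labels do not say whether the 3 libraries of a group came from separate mice or cultures, so the p-values measure only the spread between these libraries, which may be technical.

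The clearest response belonged to *Sesn2* (chr4:132047947-132066416 in mm9, minus strand), which encodes the leucine sensor sestrin 2, an Atf4 and p53 target that restrains mTORC1. In WT control cultures it was read at 8.58, 9.05 and 8.86 RPKM, and with TGF-β at 23.3, 19.4 and 18.9 RPKM. With IL-4 alone the values were 8.79, 8.13 and 9.59 RPKM, and with both cytokines 12.2, 12.4 and 9.92 RPKM. The TGF-β libraries lay above all other libraries of the series, and those with both cytokines lay above the control libraries but well below those with TGF-β alone. The rise with TGF-β was 1.13 ± 0.08 (SE) on the log2(RPKM + 1) scale (n = 3 per group, limma, adjusted p = 5.64e-05). Adding IL-4 to TGF-β gave a fall of 0.78 ± 0.10 (adjusted p = 8.85e-04), and the difference between both cytokines and control, 0.34, missed the threshold (adjusted p = 0.0111). The test of whether the effects of TGF-β and IL-4 on *Sesn2* add up in WT cells gave −0.78 ± 0.13 (adjusted p = 0.00365). It was the 1 member called there, against 1.77% of all genes, and the call was lost without WT control replicate 1 or WT IL-4 replicate 3.

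*Ddit3* (chr10:126727830-126733344 in mm9, plus strand) encodes the stress transcription factor CHOP, which Atf4 induces. WT control cultures gave 5.07, 5.65 and 4.75 RPKM, TGF-β 5.87, 5.76 and 6.02 RPKM, IL-4 6.86, 8.11 and 6.01 RPKM, and both cytokines together 10.4, 11.1 and 11.0 RPKM. The 3 libraries with both cytokines lay above every other library of the series. *Ddit3* rose by 0.94 ± 0.07 on the log2(RPKM + 1) scale with both (adjusted p = 1.84e-05). The differences with TGF-β alone (0.16, adjusted p = 0.162) and with IL-4 alone (0.37, adjusted p = 0.0997) did not pass. Against TGF-β alone, the combination gave a rise of 0.78 ± 0.07 (adjusted p = 7.5e-05), and against IL-4 alone 0.57 ± 0.09 (adjusted p = 0.00114), the latter just under the fold minimum. The last 68 bases of *Ddit3* overlap the synthetase gene *Mars* on the opposite strand, and the libraries do not record strand, so reads there cannot be told apart.

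*Trib3*, a pseudokinase that binds Atf4 and holds it back, was low: 1.33, 1.44 and 1.52 RPKM in WT control cultures, 2.18, 2.65 and 2.08 with TGF-β, 1.41, 1.74 and 1.55 with IL-4, and 2.28, 2.29 and 1.57 with both. It was read from 45 to 148 reads per library. All 3 TGF-β libraries lay above the controls, with a rise of 0.44 ± 0.09 that passed the adjusted p (0.00882) but not the fold minimum on the log2(RPKM + 1) scale; with a pseudocount of 0.1 it was called. *Atf4* itself was read at 63.0, 67.4 and 45.9 RPKM in WT control, 52.6, 62.1 and 49.5 with TGF-β, 72.7, 81.0 and 60.7 with IL-4, and 55.5, 57.7 and 56.7 with both. These groups overlapped except where IL-4 alone exceeded both cytokines, and no *Atf4* difference passed the test (both against control, −0.03, adjusted p = 0.833). *Atf5*, *Cebpb* and *Cebpg*, the remaining bZIP factors, did not pass in any comparison of WT cultures, with *Cebpb* between 2.75 and 5.25 RPKM there. Of the 7 regulators tested, 1 passed in the comparison of both cytokines with control and their median was 0.11 on the log2 scale, where the median of all genes was 0.03.

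**Figure D2:**
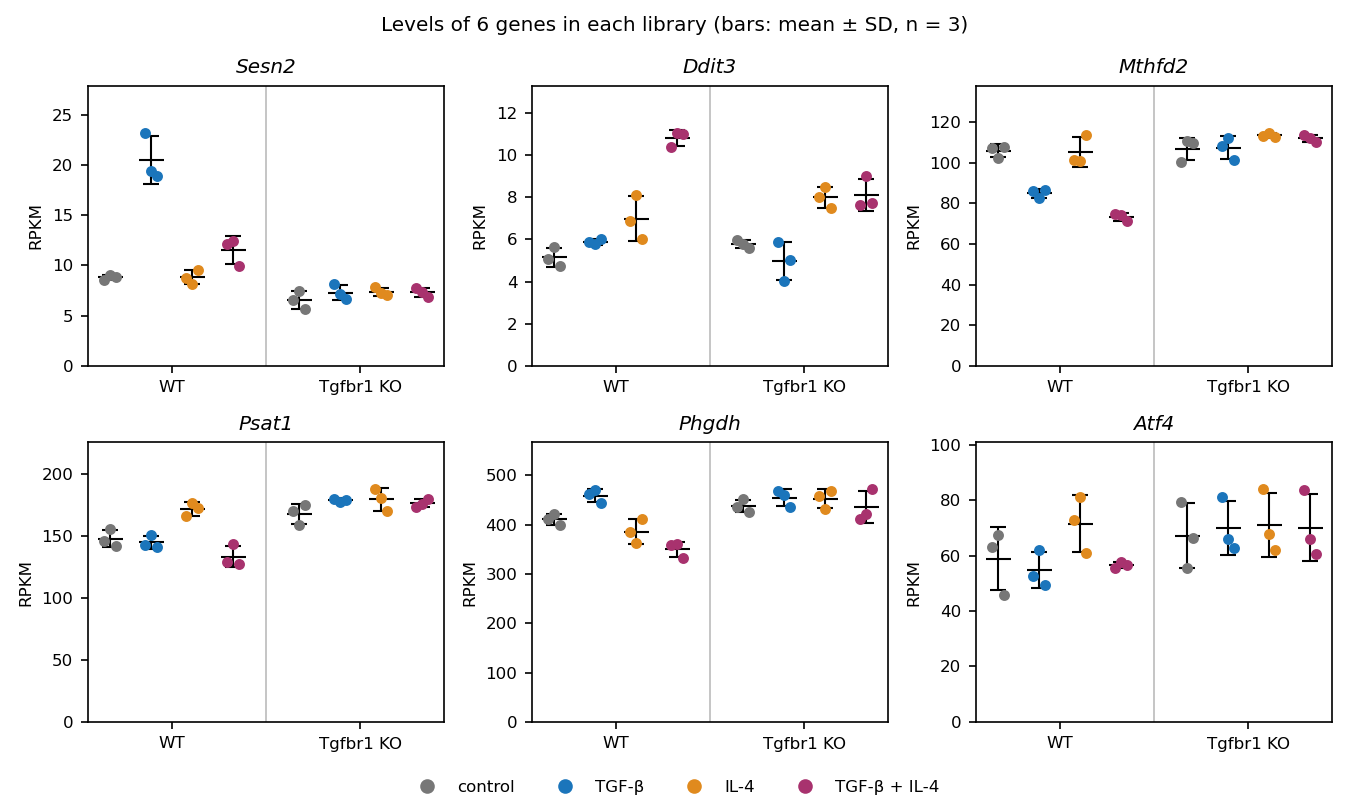
RPKM of *Sesn2*, *Ddit3*, *Mthfd2*, *Psat1*, *Phgdh* and *Atf4* by genotype and culture, with 1 point per library and bars for the mean ± SD of 3. *Sesn2* is highest in WT with TGF-β (20.5 ± 2.37, mean ± SD), *Ddit3* in WT with TGF-β and IL-4 (10.8 ± 0.383), and *Mthfd2* is lowest there (73.5 ± 1.9) but not in KO (112 ± 1.62).

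Of the 8 serine and folate enzymes, *Mthfd2*, *Shmt1* and *Phgdh* were lower in WT cells given both cytokines than in control by adjusted p alone, 3 of 8 where 11% of all genes were lower, and none was called. All 8 had a fitted change below 0, with a median of −0.17, and the share of all genes below 0 is not given here. *Mthfd2*, the mitochondrial methylene-tetrahydrofolate dehydrogenase of dividing cells (chr6:83255685-83267600 in mm9, minus strand), moved most. It was read at 108, 102 and 108 RPKM in control cultures, 86.0, 82.6 and 86.7 with TGF-β, 101, 101 and 114 with IL-4, and 75, 74.1 and 71.3 with both. The 4 groups separated into 3 levels: control and IL-4 overlapped, TGF-β lay below them, and the combination lay below TGF-β, although the step from TGF-β to both did not pass (−0.21, adjusted p = 0.0108). Against control the fall was 0.31 ± 0.04 with TGF-β (adjusted p = 0.00177) and 0.52 ± 0.05 with both (adjusted p = 3.5e-05), and against IL-4 alone the combination gave a fall of 0.51 ± 0.06 (adjusted p = 1.04e-04).

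*Shmt1*, the cytosolic serine hydroxymethyltransferase, read 155, 155 and 172 RPKM in WT control and 126, 136 and 124 with both cytokines, a fall of 0.32 ± 0.06 (adjusted p = 0.00226). *Phgdh* took a different course. It was read at 412, 422 and 399 RPKM in WT control, 462, 470 and 444 with TGF-β, 385, 362 and 411 with IL-4, and 358, 360 and 333 with both. Each TGF-β library thus exceeded each control library (0.16, adjusted p = 0.0434, not past the threshold), and the combination lay below control (a fall of 0.23 ± 0.05, adjusted p = 0.00601) and below TGF-β alone (a fall of 0.39 ± 0.05, adjusted p = 7.42e-04). *Psat1*, the aminotransferase that follows *Phgdh* in serine synthesis, read 146, 156 and 142 RPKM in control, 143, 151 and 141 with TGF-β, 166, 177 and 172 with IL-4, and 129, 143 and 127 with both. The IL-4 libraries of *Psat1* were the highest and those with both cytokines the lowest on average, and the step between these groups passed (a fall of 0.37 ± 0.05, adjusted p = 6.16e-04), while neither group passed against control. *Shmt2* was nearly even, at 332, 336 and 330 RPKM in control, 348, 345 and 327 with TGF-β, 325, 322 and 333 with IL-4, and 311, 315 and 292 with both, and did not pass against control in any WT culture.

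*Asns*, which makes asparagine from aspartate and is a standard readout of Atf4, did not follow *Sesn2* or *Ddit3*. Its WT values were 6.80, 8.65 and 9.22 RPKM in control, 7.77, 6.63 and 7.06 with TGF-β, 7.87, 8.61 and 10.8 with IL-4, and 6.84, 6.23 and 6.71 with both. Each group with a cytokine overlapped control, and the change with both cytokines was −0.27 (adjusted p = 0.0573). *Aldh18a1*, the enzyme that begins proline synthesis from glutamate, was read at 43.2, 45.8 and 46.1 RPKM in control, 58.1, 58.0 and 55.5 with TGF-β, and 46.9, 49.0 and 46.6 with both. It rose with TGF-β by adjusted p (0.34 ± 0.05, adjusted p = 0.00162) and was lower with both cytokines than with TGF-β (a fall of 0.26 ± 0.05, adjusted p = 0.00455). *Pycr1*, for the last step of proline synthesis, stayed between 1.58 and 2.28 RPKM in WT cultures and did not pass.

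The 12 tRNA synthetases, which load amino acids onto their tRNAs, ranged in mean level from 36.2 RPKM for *Cars* to 182 RPKM for *Gars*. With both cytokines in WT, 11 of the 12 lay below control, with a median of −0.20, and 5 passed the adjusted p, where 11% of all genes were lower: *Iars* (a fall of 0.36), *Nars* (0.35), *Cars* (0.34), *Aars* (0.28) and *Yars* (0.27). *Nars*, for asparaginyl-tRNA synthetase, went from 136, 133 and 156 RPKM in control to 109, 114 and 109 RPKM with both. *Wars*, for tryptophanyl-tRNA synthetase, was the 1 synthetase above control with both cytokines, at 83.9 ± 2.08 against 77.4 ± 1.93 RPKM (mean ± SD). Over all 30 members tested, 23 lay below control with a median of −0.15, where the median of all genes was 0.03.

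Against TGF-β alone, the combination called *Ddit3* and *Sesn2*, 2 of 30 members where 3.03% of genes were called. By adjusted p alone 1 member was higher, *Ddit3*, and 4 were lower, *Sesn2*, *Phgdh*, *Aldh18a1* and *Nars*, against 6.43% and 2.83% of all genes. Against IL-4 alone, no member was called where 9.28% of genes were, although *Ddit3* was called without WT TGF-β with IL-4 replicate 1 or WT IL-4 replicate 2. By adjusted p alone, 2 members were higher, *Ddit3* and *Wars*, and 6 were lower: *Mthfd2*, *Psat1*, *Shmt1*, *Yars*, *Nars* and *Psph*, with 16.3% of all genes higher and 13.1% lower. Scaling by median ratios gave 1 higher and 10 lower in that comparison, and the share of all genes under that scaling is not given here.

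In KO cultures no member was called in response to any cytokine. TGF-β alone called 0.0105% of genes in KO cells, a single gene, with the same 0.0105% by adjusted p alone, and no member had an unadjusted p under 0.05 (limma). IL-4 alone called 2.51% of genes (3.7% by adjusted p alone), and 4 members had an unadjusted p under 0.05, among them *Ddit3* (0.41, adjusted p = 0.0116). The combination called 1.92% of genes (2.25% by adjusted p alone), and *Ddit3* was the 1 member with an unadjusted p under 0.05 (0.42, adjusted p = 0.0394). The median of the 30 members with both cytokines in KO was 0.01, equal to that of all genes. *Ddit3* was read in KO at 5.96, 5.79 and 5.61 RPKM in control, 5.87, 4.04 and 5.04 with TGF-β, 8.0, 8.49 and 7.51 with IL-4, and 7.65, 9.0 and 7.73 with both. Its 6 libraries with IL-4 all lay above the 6 without, and those with and without TGF-β overlapped.

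*Sesn2* in KO stayed between 5.63 and 8.12 RPKM: 6.54, 7.47 and 5.63 in control, 8.12, 7.10 and 6.68 with TGF-β, 7.82, 7.24 and 7.09 with IL-4, and 7.74, 7.38 and 6.83 with both. All 12 KO libraries lay below all 12 WT libraries, but narrowly. The highest KO library, with TGF-β, read 8.12 RPKM and the lowest WT library, with IL-4, 8.13 RPKM. *Mthfd2* in KO read 101, 111 and 110 RPKM in control, 109, 113 and 101 with TGF-β, 113, 115 and 113 with IL-4, and 114, 112 and 110 with both, and did not pass against control in any culture (with both, 0.07, adjusted p = 0.711). *Psat1* gave 170, 159 and 174, then 180, 178 and 179, then 188, 181 and 170, then 173, 176 and 180 RPKM in the same order of cultures. *Phgdh* gave 436, 451 and 426, then 469, 460 and 435, then 458, 431 and 468, then 412, 421 and 472 RPKM. For *Phgdh* each culture overlapped control, while the TGF-β libraries of *Psat1* lay above those of control without passing the test.

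The remaining members followed by library did not pass against KO control either. *Shmt2* read 308, 316 and 316 RPKM in control, 314, 315 and 314 with TGF-β, 350, 320 and 372 with IL-4, and 315, 335 and 364 with both, with the IL-4 libraries above those of control. *Atf4* read 79.3, 55.7 and 66.5, then 81.0, 65.8 and 62.7, then 84.0, 67.6 and 61.8, then 83.7, 66.0 and 60.5 RPKM, with replicate 1 the highest in each culture. *Asns* read 6.75, 7.53 and 9.14, then 8.76, 8.01 and 8.12, then 8.17, 7.78 and 8.60, then 8.08, 8.31 and 7.55 RPKM. *Trib3* read 1.27, 1.05 and 1.11, then 1.06, 1.36 and 1.55, then 1.43, 1.41 and 1.96, then 1.10, 2.51 and 1.99 RPKM, the widest spread of the 4.

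Setting KO beside WT in the same culture asks which members differ between genotypes. Loss of the receptor and exposure to tamoxifen cannot be told apart in these differences. In control cultures no member was called, with 2.46% of genes called and 4.65% past the adjusted p alone; 10 members had an unadjusted p under 0.05, among them *Sesn2* (−0.39, adjusted p = 0.0332) and *Cebpb* (−0.45, adjusted p = 0.0358). IL-4 cultures also called no member, with 2.99% of genes called and 5.11% past the adjusted p, and 10 members had an unadjusted p under 0.05. The share of all genes at an unadjusted p under 0.05 is not given here, so neither count shows an excess of members. In TGF-β cultures, *Sesn2* was the 1 member called, against 9.68% of genes, and was lower in KO by 1.37 ± 0.10 on the log2(RPKM + 1) scale (adjusted p = 1.2e-05). By adjusted p alone 6 members were higher in KO, *Mthfd2* (0.33), *Psat1* (0.30), *Shmt1* (0.27), *Mthfd1l* (0.25), *Gars* (0.22) and *Eprs* (0.20), and 3 were lower, *Sesn2*, *Trib3* (−0.51) and *Aldh18a1* (−0.26), against 10.6% and 13% of all genes.

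With both cytokines, *Mthfd2* was called, higher in KO by 0.60 ± 0.05 on the log2(RPKM + 1) scale (adjusted p = 8.8e-05), where 8.44% of genes were called. It sat at the edge of the fold minimum and was lost without WT TGF-β with IL-4 replicate 3, where *Sesn2* was called instead. By adjusted p alone, 12 members were higher in KO and 1, *Sesn2* (−0.58, adjusted p = 0.00333), was lower, against 9.94% and 8.93% of all genes. This count fell to 3, 7 and 4 without WT TGF-β with IL-4 replicate 1, 2 and 3, and to 7 without KO TGF-β with IL-4 replicate 3. The 12 included 5 of the 8 serine and folate enzymes, all 8 of which lay above WT with a median of 0.30, and 7 of the 12 synthetases, 11 of which lay above WT with a median of 0.30. Next after *Mthfd2* came *Shmt1* (0.47), at 173, 180 and 183 RPKM in KO against 126, 136 and 124 in WT, then *Psat1* (0.40) and *Nars* (0.35). The median of all members was 0.25, against 0.12 in TGF-β cultures, 0.10 in IL-4 cultures and 0.05 in control, and that of all genes with both cytokines was 0.01.

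**Figure D3:**
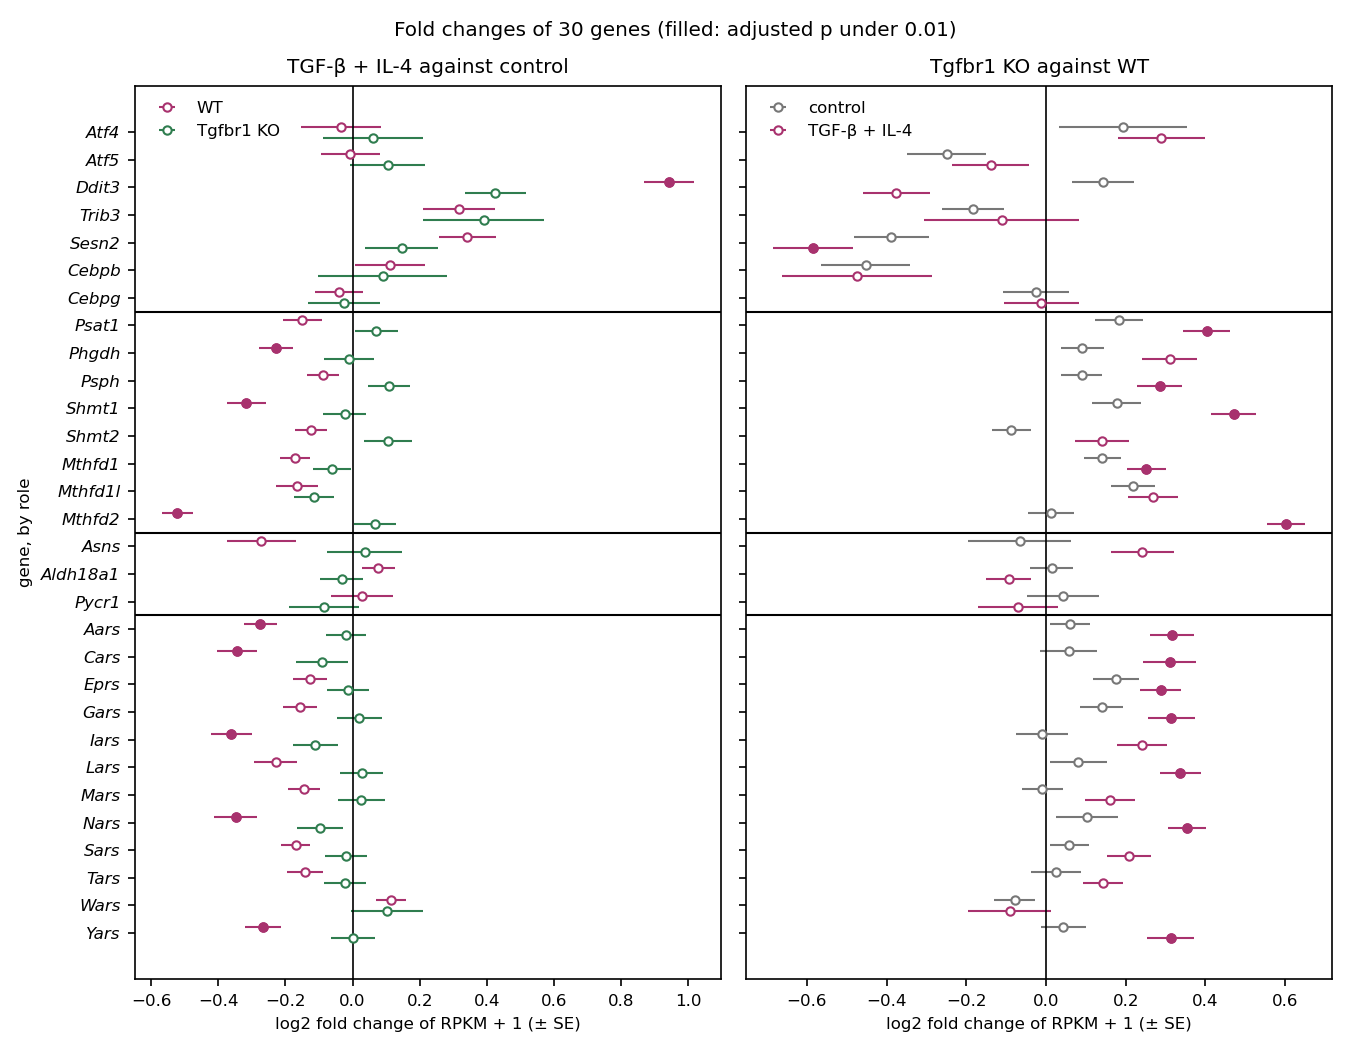
Fitted difference (± SE) on the log2(RPKM + 1) scale for the 30 tested members, on the left for TGF-β with IL-4 against control in WT and in KO, on the right for KO against WT in control cultures and in cultures with both cytokines. Filled markers passed an adjusted p of 0.01 and open markers did not. On the left 9 WT markers and no KO marker are filled, and on the right 13 markers are filled with both cytokines and none in control cultures.

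Whether a response itself differed between genotypes was tested by an interaction term. For TGF-β, *Sesn2* was the 1 member called (−0.98 ± 0.14, adjusted p = 4.83e-04), against 4.71% of genes. For the combination, *Mthfd2* was called (0.59 ± 0.07, adjusted p = 1.62e-04), against 4.18% of genes. By adjusted p alone, 1 member was above 0, *Mthfd2*, and 1 below, *Ddit3* (−0.52 ± 0.11, adjusted p = 0.00855), with 2.67% and 3.5% of all genes on those sides. The *Mthfd2* call was lost without WT control replicate 1 or 3, WT TGF-β with IL-4 replicate 3, KO control replicate 1, or KO TGF-β with IL-4 replicate 1. *Shmt1* (0.29, adjusted p = 0.0349), *Aars* (0.26, adjusted p = 0.029) and *Yars* (0.27, adjusted p = 0.0404) did not pass. The comparisons above share control libraries, so they are not independent of each other.

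Other genes of the pathway, from 8 lists, were followed in WT cells with both cytokines against control, where, as above, 9.27% of all genes were called, and 16.5% were higher and 11% lower by adjusted p alone. Among 10 amino acid transporters tested, 2 were called higher, *Slc1a4* (0.72, adjusted p = 4.05e-04), a carrier of alanine, serine and cysteine, and *Slc43a1* (0.59, adjusted p = 6.1e-04), a carrier of large neutral amino acids, and a further 2 were lower by adjusted p alone. Mean *Slc1a4* was 1.41 RPKM in control, 3.46 with TGF-β, 1.21 with IL-4 and 2.95 with both in WT, and 1.06 to 1.21 RPKM in the KO cultures. Among 7 further Atf4 targets tested, *Ddit4*, an inhibitor of mTORC1, was called higher (0.71, adjusted p = 2.09e-04) and *Cth*, the cystathionine lyase that makes cysteine, lower (−0.72, adjusted p = 1.26e-04), and by adjusted p alone 3 were higher and 1 lower. *Cth* was read at 2.42, 2.43 and 2.46 RPKM in WT control and 1.24, 1.1 and 0.94 with both, so its groups did not overlap.

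Among 8 further proline and glutamate genes, *Prodh*, for proline breakdown, was called lower (−0.61, adjusted p = 4.5e-04), and 3 were lower by adjusted p alone. The 14 further folate and methionine genes tested had no call, with 1 higher and 3 lower by adjusted p alone and a median of −0.07. The 8 remaining cytosolic synthetases had no call, with 1 higher and 1 lower by adjusted p alone, and the 17 mitochondrial synthetases had no call, with 1 lower. *Ears2* of the mitochondrial list was called higher in KO than in WT with TGF-β (0.60). In WT cells with both cytokines against control, the 8 genes of the eIF2 kinases and phosphatase had neither a call nor a gene past the adjusted p. This covers that comparison only and does not describe KO against WT. In the same WT comparison, the 12 endoplasmic reticulum stress genes of the Atf6 and Xbp1 branches had no call, with 1 higher and 2 lower by adjusted p alone.

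The transcription starts of the members were open in nearly every library. A DHS lay within 1000 bp of an annotated start (mm9) for 30 of the 32 members in WT control (93.8%), and for 29 in WT with both cytokines, KO control and KO with both (90.6% each). Among 9049 genes with a mean of at least 1 RPKM the shares were 92.9%, 91.7%, 91.4% and 89.4%, and among 20761 genes of the table with an annotated start 52.7%, 50.7%, 50.8% and 48.4%. The members were thus open about as often as other expressed genes. A DHS was listed in all 4 libraries for 29 members, including *Chac1* at its low RNA level. *Asns* and *Vldlr* had none in any list. *Cebpb*, for the C/EBPβ partner of Atf4, had one only in WT control, with a fold enrichment of 3.58 and thus among the weaker sites of that list. The counts were the same within 100 bp of a start and with a stricter −log10 q of at least 5.

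The lists differ in size, 44298 DHSs in WT control, 33880 in WT with both, 33665 in KO control and 27145 in KO with both, and fold enrichment is not set against other lists here. Within each list, the strongest DHS of the 29 members had a median rank above 93.8%, 88.5%, 91.9% and 86.7% of the sites, respectively. *Phgdh* was the lowest of the 29 in WT with both cytokines, above 49.5% of that list; it ranked above 79.2% of the WT control list, 72.0% of the KO control list and 67.4% of the list for KO with both. The lists differ in length, so these ranks are not compared between conditions. At the genes that changed, the start of *Sesn2* ranked above 86.7%, 88.5%, 91.4% and 85.5% of sites, that of *Ddit3* above 75.2%, 79.7%, 86.3% and 75.5%, and that of *Mthfd2* above 76.3%, 87.1%, 82.5% and 76.7%, in the order of the list sizes. With 1 library per condition these ranks have no replicate check. Of the 10 members with a CARE core, 8 had a window overlapping a DHS in all 4 lists, all but *Asns* and *Vldlr*, as did 17 of the 18 without a core.

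**Figure D4:**
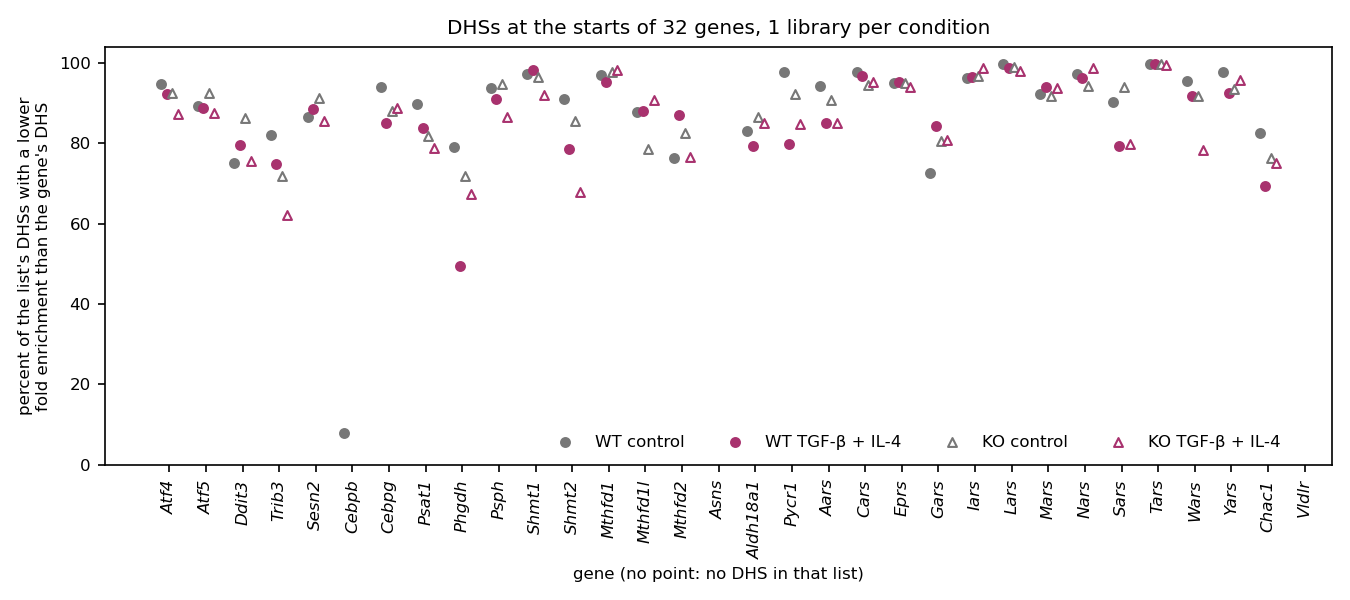
Rank of the strongest DHS within 1000 bp of each member's start in the 4 DNase-seq lists, as the percent of that list's DHSs with a lower fold enrichment, with 1 point per member and list. Most points lie above 80%, the lowest of the 29 members with a point in every list is *Phgdh* at 49.5% in WT with both cytokines, and *Cebpb* has a point only in WT control.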

How the data were processed

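RNA-seq and DNase-seq libraries of mouse CD4+ T cells were grouped by genotype and culture from their labels. Per the labels and the methods of the study, the authors used Bowtie2 with the mm9 genome, discarded poorly mapped and duplicate reads, and deposited RPKM values per gene computed with edgeR. Removal of duplicates caps the count of a gene at its distinct positions, which can understate differences among abundant genes such as *Phgdh*. The authors called narrow DNase peaks for each library with MACS2, and deposited their fold enrichment (a ratio) and −log10 p and q values. The RPKM values were deposited without read counts or depths. The counts that the study gives for 8 WT libraries were used only to identify columns. Relative depth was taken from the steps between low values.

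RPKM values were tested as log2(RPKM + 1) with limma 3.58.1 (R 4.3.3, with a mean-variance trend), on genes with a mean of at least 1 RPKM over the libraries of each fit, with Benjamini-Hochberg adjustment over all of them. Fold changes on this scale understate those of low genes. The test was checked on simulated data. The 32 members, the lists, the comparisons and the members followed by library were chosen with earlier results of these data known. Values in every library were given for members called and for a fixed set, and up to 3 called genes were named from each other list. Alternatives were another pseudocount, other filters, scaling, fits and thresholds, the replicate number as a block, the columns as headed, the 8 identified libraries alone, and each library left out. DHSs were assigned to starts of GENCODE vM1 (mm9), and promoter sequences came from RefSeq (GRCm38.p6), a different build, so no coordinate was carried between them: windows were matched to mm9 by sequence. Python 3.11.15, pandas 2.3.3, numpy 2.4.6 and matplotlib 3.10.9 were used. One promoter stretch and one gene of the other lists are not reported here.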

Additional observations from a re-analysis of the deposited data

Results flagged for a closer look

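Responses of 3 members differed between conditions by a test of the difference itself, by adjusted p alone. The effect of TGF-β on *Sesn2* differed between KO and WT by −0.98 on the log2(RPKM + 1) scale. In that test 2.72% of all genes passed above 0 and 3.95% below. The effect of TGF-β with IL-4 differed between KO and WT for *Ddit3* by −0.52, which was not called, and for *Mthfd2* by 0.59. There 2.67% of all genes passed above 0 and 3.5% below. In WT cells the effect of TGF-β on *Sesn2* differed with and without IL-4 by −0.78, where 2.77% passed above 0 and 0.827% below. The *Mthfd2* call and this last *Sesn2* call were each lost when some single libraries were left out. The number of members is not read as an excess over all genes.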

How the results depend on the processing

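Of 273 recomputed counts, 239 stayed near the reported count and 34 moved. For members called, near meant within 1.5 times, and 0 against 0 also counted as near. For promoters with a DHS or a CARE core, it meant inside a 95% interval of the reported share. The reported counts of members called were only 0, 1 or 2, and the same count can hold different genes. The 239 is therefore not a measure of stability. With the adjusted p alone the counts of members were 4 for TGF-β, 9 for both cytokines, 5 for both against TGF-β, 8 for both against IL-4, 9 and 13 for KO against WT in TGF-β and both, and 2 for the interaction with both. A pseudocount of 0.1 gave 2, 1, 2 and 2 members for TGF-β, both against IL-4, and KO against WT in TGF-β and both. Read as headed, the 8 comparisons that had called a member called 0, and *Asns* with both cytokines changed sign to 0.091. The 8 identified libraries gave 1 member for both against IL-4, 0 for TGF-β by IL-4, and 0.059 for *Atf4* with both cytokines. No filter on low values gave 0 for TGF-β by IL-4. Leaving out 1 library at a time gave 0 to 1 members for both against IL-4, 1 to 3 for KO against WT with both, 0 to 2 for the interaction with both, and 0 to 1 for TGF-β by IL-4; the other 11 counts did not move. *Atf4* with both cytokines ranged from −0.20 to 0.072, and was 0.023 without WT control replicate 1.

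With the adjusted p alone, the TGF-β count fell from 4 to 1 without WT control replicate 1 and to 2 without WT TGF-β replicate 1. The count for both cytokines fell from 9 to 5 without WT TGF-β with IL-4 replicate 1 or 3. Against TGF-β it fell from 5 to 3 without WT TGF-β replicate 1 or any replicate with both, and against IL-4 from 8 to 5 without WT TGF-β with IL-4 replicate 1. KO against WT in TGF-β cultures fell from 9 to 5 without WT TGF-β replicate 1 or 3, 3 without KO TGF-β replicate 2 and 4 without KO TGF-β replicate 3. Scaling by median ratios gave 16 for both cytokines, 11 for both against IL-4 and 12 for KO against WT with both. All libraries in one fit gave 14 for both cytokines and 18 for KO against WT with both; without the trend these were 8 and 6. Such settings can also change how many of all genes pass. The share of all genes under each setting is not given here. The counts therefore describe the settings and are not read as a result about the members. The cause was not tested. The labels give the replicate numbers without saying what they share, and deviations of same-numbered libraries correlated between −0.089 and 0.553 in WT and between −0.297 and 0.415 in KO, against −0.56 to 0.316 and −0.431 to 0.429 for other pairs. With the replicate number as a block the called counts were unchanged, at 1 for both cytokines; by adjusted p alone they were 4 for TGF-β and 8 for both. The precision of 3 libraries a group, and 1 DNase-seq library a condition, limits all values.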

Other observations

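*Atf3*, a transcription factor induced by Atf4 and other stress signals, is described after its values were seen and lies outside the rule for named genes. Its mean was 8.0 RPKM in WT control, 4.84 with TGF-β, 26.1 with IL-4 and 11.2 with both, and in KO 2.88, 3.59, 21.8 and 20.6 RPKM in the same order (n = 3 each). In WT, IL-4 raised it by 1.59 ± 0.08 on the log2(RPKM + 1) scale (limma, adjusted p = 5.96e-05), TGF-β gave a fall of 0.62 ± 0.09 (adjusted p = 0.00214), and the combination lay below IL-4 alone by 1.15 ± 0.08 (adjusted p = 1e-05). In KO, the combination raised it by 2.49 ± 0.16 (adjusted p = 7.2e-05), and the difference between genotypes in that response was 2.05 ± 0.21 (adjusted p = 4.7e-05). *Ddit3*, the other bZIP stress factor, had its highest level in WT with both cytokines.

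*Cth*, which was called lower with both cytokines in WT, was read at 6.27, 5.75 and 5.62 RPKM in KO control cultures against 2.42, 2.43 and 2.46 RPKM in WT, and was higher in KO by 1.00 ± 0.07 (adjusted p = 1.21e-04). It fell with both cytokines in KO as well, by 0.88 ± 0.10 (adjusted p = 0.00171), to 3.11, 2.51 and 2.63 RPKM. The test of a different response between genotypes gave −0.15 (adjusted p = 0.429).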
